A study of Mus musculus with 860 samples.

Results

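The comparison described here set the hemogenic endothelium (HE) of the E11.5 mouse aorta-gonad-mesonephros (AGM) region against the GFI1+ cells of the intra-aortic hematopoietic clusters (IAHC) of the same stage. Its members were the E11.5 cells of both sorted groups to which the depositors had given a Louvain cluster, taken in sequencing batches GL53, GL58 and GL78. They numbered 412 of the 775 cells kept in the series, of which 240 were GFI1+ IAHC (called IAHC from here on) and the rest HE. A second set held the 380 of these cells that lay in Louvain clusters 0 to 5, which left out 1 HE and 31 IAHC cells.

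The study follows Notch signalling while HE turns into IAHC. All cells came from pooled AGMs of embryos carrying the Gfi1:tomato reporter allele, in which the Gfi1 locus drives a red fluorescent protein, on a CD1 background. HE cells were sorted as CD31+cKIT-GFI1+ and IAHC cells as CD31+cKIT+GFI1+. Neither group was treated, and both carried the reporter. The labels call the first group hemogenic endothelium and the second hematopoietic cells. They also give an age of 6 to 8 weeks, which cannot be that of E11.5 embryos. No label ties a cell to an embryo or a litter, and the sorting experiments were fewer than the sequencing batches.

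Hematopoietic stem cells first appear in the floor of the dorsal aorta, where some endothelial cells switch on blood genes, round up and enter clusters on the vessel wall. The wall they leave is arterial endothelium, which uses Notch receptors, the ligands DLL4 and JAG1 and the targets HEY1 and HEY2, and couples its cells through connexins. GFI1 is a transcriptional repressor that shuts down endothelial genes in cells entering the blood program, and cKIT, the stem cell factor receptor, marks the cells of the clusters.

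Each deposited sample was 1 cell, read by Smart-Seq2 as full-length cDNA, and the counts were reads without molecular identifiers. The kept cells held 157932 to 2296823 counts each. Of the HE cells 19 were in GL58, 40 in GL78 and the rest in GL53, and of the IAHC cells 30, 89 and the rest. Their counts were added up for each group in each batch, to 6 sums of 16913280 to 81413219 counts. Levels are given as CPM, the count scaled to a total of 1000000 for such a sum, in the order GL53, GL58 and GL78. A log2 ratio is HE over IAHC within a batch, with 1 CPM added to both sides, and is given as the mean ± SD over the 3 batches. With no animal named, each group counts as 1 sample. No test was made, and the SD covers batches that need not be separate sorts. In such sums, fewer cells of a type and less RNA per cell cannot be told apart. No 2 kept cells had identical counts.

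The gate and the labels were checked first. Kit mRNA stood at 100.1, 88.98 and 85.1 CPM in HE and 201.7, 166.6 and 207.3 CPM in IAHC (log2 ratio -1.06 ± 0.19), with no overlap between the groups, in the order of the cKIT gate. Gfi1 mRNA was barely seen: it stood at 0, 0 and 1.48 CPM in HE and 12.01, 0 and 2.13 CPM in IAHC, and 100% of its IAHC reads came from cells of cluster 2. A low mRNA level of the reporter's own gene is therefore a property of both groups. After thinning every cell to 50000 counts, at least 3 of the 5 endothelial markers Cdh5, Pecam1, Kdr, Tek and Emcn were read in 97.3%, 84.2% and 95% of HE cells and in 85.95%, 73.3% and 75.3% of IAHC cells. At least 2 of the 5 blood markers Ptprc, Runx1, Spi1, Myb and Coro1a were read in 3.54%, 15.8% and 5% of HE cells and in 18.2%, 10% and 21.3% of IAHC cells. The endothelial label of HE thus held, whereas most cells labelled hematopoietic in the IAHC gate carried endothelial mRNA and few blood markers.

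**Figure D1:**
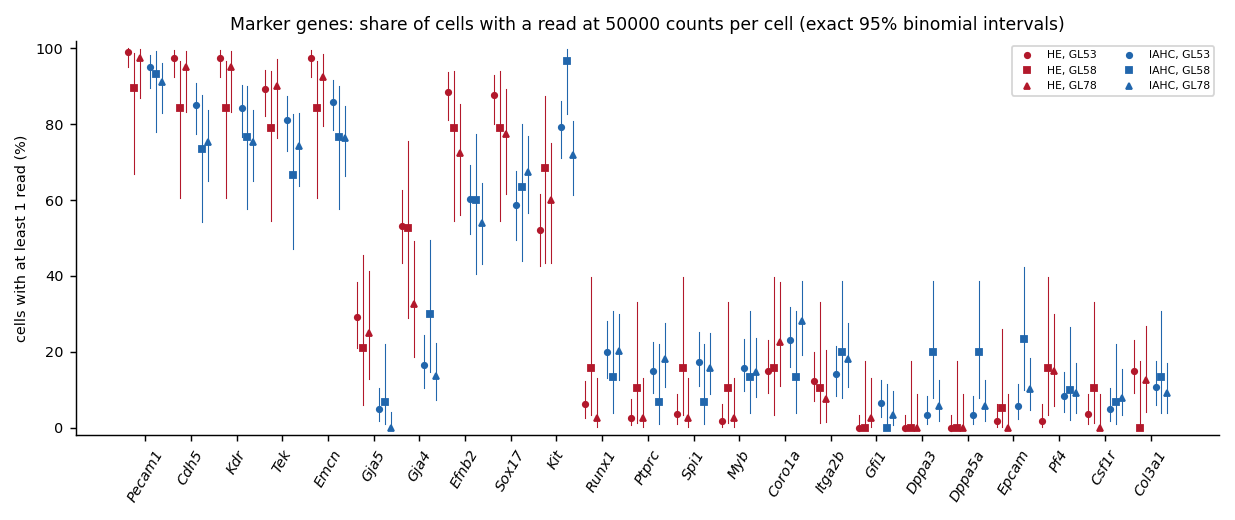
Percent of kept cells with at least 1 read of each named marker after thinning to 50000 counts per cell, by group and batch, with exact binomial 95% intervals that cover counting error only. Endothelial markers were near their ceiling in HE, and Kit was read in more IAHC than HE cells in every batch. The other blood markers were read in a minority of cells of either group.

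The cells of the groups were spread over the clusters differently. Of the HE cells, 67 lay in cluster 1 and 42 in cluster 4, and clusters 0, 2, 3, 5 and 9 held 23, 7, 20, 12 and 1. Of the 240 IAHC cells, 87 lay in cluster 0, and 39, 39, 31, 2 and 11 lay in clusters 1, 2, 3, 4 and 5. A further 31 IAHC cells lay in clusters 6 to 10, with 13 in cluster 7 and 15 in cluster 8. The clusters were computed from the same genes, so their make-up is a description. Cluster 4 was HE in all but 2 of its E11.5 GFI1+ cells and cluster 2 was mostly IAHC. Many results are therefore also given in cells of clusters 0 to 5, in cells of clusters 0, 1, 3 and 5 alone, or in both. Clusters 0, 1, 3 and 5 are the set called without clusters 2 and 4. No minimum level was asked of a gene for a ratio given in that set. Where few reads were left, such a ratio leans on the added 1 CPM.

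A gene counted as higher in a group when it had at least 10 CPM there, as the mean of the batches, and was at least 2-fold higher in every batch. Of 9923 genes with 10 CPM in either group, 91 were higher in HE (0.917%) and 91 in IAHC (0.917%). In clusters 0 to 5, of 9773 genes, 83 were higher in HE (0.849%) and 31 in IAHC (0.317%). The HE genes were largely kept by the restriction: 68 genes were on both lists, 74.7% of the first and 81.9% of the second. Of the IAHC genes 19 were on both lists, 20.9% of the first and 61.3% of the second. Without clusters 2 and 4, 9 of the 68 HE genes and 6 of the 19 IAHC genes still met the rule. The median log2 ratio of the 68 HE genes was 2.15 in all kept cells and 0.68 without those clusters, where 53 of the 68 kept their sign. For the 19 IAHC genes it was -1.99 and -1.27, and 17 kept their sign. Over all genes measured the median was -0.084 in all kept cells and -0.040 without the 2 clusters. With the highest cell of each gene left out of every group and batch, 51 of the 91 genes higher in HE and 56 of the 91 higher in IAHC still met the rule.

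Of the genes that met the rule in both sets, 30 HE genes and 5 IAHC genes had reads in at least 25% of the higher group's cells in every batch. The 25 HE genes with the largest ratio in their lowest batch, 1 predicted gene passed over, and the 5 IAHC genes are the named genes. In 24 of the 25 HE genes and 2 of the 5 IAHC genes the 3 values of one group lay wholly above those of the other. The genes were picked for their ratio in every batch, which favours this, and no share over all genes is given beside it. The count is therefore a description. Counting error of the reads was at most 13.8% of any one of their levels. It does not cover the spread between cells.

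**Figure D2:**
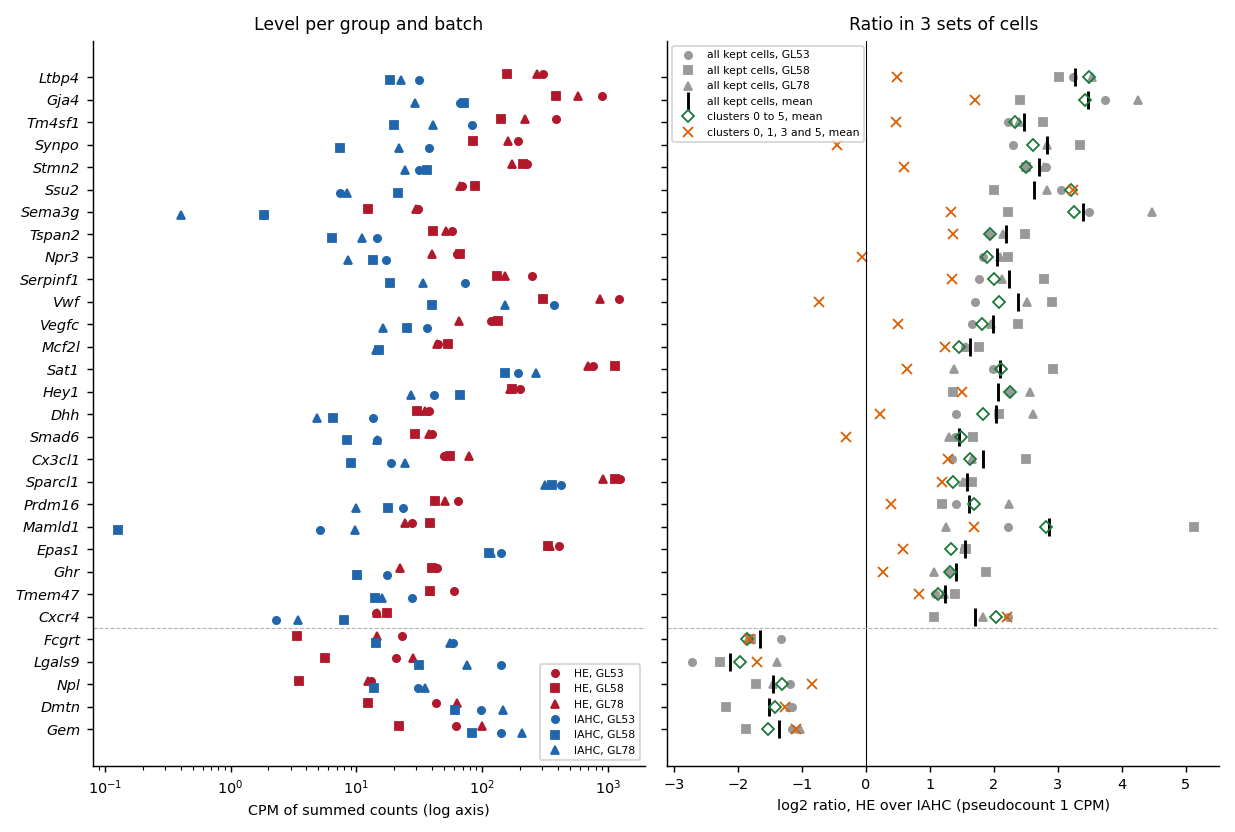
CPM of the named genes in the 3 batches of HE and IAHC on a log axis, with 1 point per group and batch. Among the HE genes only Vwf had group values that overlapped, because IAHC of GL53 (373.04 CPM) exceeded HE of GL58 (303.5 CPM).

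Arterial endothelial genes made up the clearest difference. The list of arterial genes had 20 measured members, of which 13 were higher in HE and 1 in IAHC, against 0.917% of all genes in each direction. The 1 in IAHC was Alpl (-3.49 ± 1.99), and 99.8% of its IAHC reads came from cluster 8. The median log2 ratio of the list was 1.88, with 2.23, 1.26 and 2.13 in the batches, beside -0.084 for all genes. In clusters 0 to 5, 11 members were higher in HE, none in IAHC, and the median was 2.02. Without clusters 2 and 4 the median was 0.69. Summed over the list, the level was 4153 to 5707 CPM in HE and 1287 to 1760.4 CPM in IAHC.

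Gja5 had the highest mean ratio of the list. It encodes connexin 40, a gap junction protein of arterial endothelium, and stood at 384.4, 275.7 and 267.6 CPM in HE and 5.75, 8.25 and 0.045 CPM in IAHC (log2 ratio 6.25 ± 1.59). All HE values were far above all IAHC values. The reads came from a minority of cells, since 30.1%, 21.1% and 25% of HE cells and 8.26%, 13.3% and 1.12% of IAHC cells had any. Gja4, which encodes connexin 37, stood at 906, 389.7 and 580.1 CPM in HE and 67.2, 72.4 and 29.4 CPM in IAHC (3.47 ± 0.95). Without clusters 2 and 4 their mean log2 ratios were 2.06 and 1.71, but 98.9% and 83.1% of their HE reads had come from cluster 4. For Gja5 the ratio in that set thus rested on few reads.

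Hey2 and Hey1, transcriptional repressors that Notch switches on in arteries, were both higher in HE. Hey2 stood at 54.9, 9.93 and 18.2 CPM in HE and 0, 0 and 0.27 CPM in IAHC. IAHC cells of GL53 and GL58 had no read. With 3 counts set as the floor for a group without any, HE stood at 1491-fold the floor in GL53 and 78.3-fold in GL58. That floor covers counting error only and not which cells were sorted, so these are not lower bounds of the difference. Hey1 was found in both groups, at 199.1, 174.3 and 166.9 CPM in HE and 41.4, 67.1 and 27.3 CPM in IAHC (2.06 ± 0.62), and kept a ratio of 1.497 without clusters 2 and 4, where Hey2 had 0.68. The 2 genes also differed in where their HE reads lay: cluster 4 gave 98.7% of those of Hey2 and 55.8% of those of Hey1.

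Bmx, a non-receptor tyrosine kinase of arterial endothelium, stood at 68.7, 25.4 and 44.3 CPM in HE and 10.9, 1.99 and 1.38 CPM in IAHC (3.31 ± 0.86). Cxcl12, the chemokine that binds CXCR4, stood at 43.8, 16.9 and 49.5 CPM in HE and 3.25, 0 and 2.64 CPM in IAHC (3.78 ± 0.38), in few cells of either group (12.4%, 15.8% and 12.5% of HE cells and 6.61%, 0% and 5.62% of IAHC cells). Neither had a higher mean in HE without clusters 2 and 4 (-0.15 and -1.02). Cluster 4 held 99.3% and 99.6% of their HE reads, so few were left in that set. These 3 genes, Hey2, Bmx and Cxcl12, are the arterial genes higher in HE whose 250 bases before the start of transcription hold TGGGAA, the core of the motif of RBPJ, the DNA-binding partner of cleaved Notch. The stretches are shown because they hold this motif before the start of arterial genes higher in HE. They are RefSeq promoters of GRCm38.p6, written 5′ to 3′ on the gene's strand with the motif, or its reverse complement TTCCCA, in capitals: Hey2 at chr10:30842784-30843033 (- strand), Bmx at chrX:164258194-164258443 (- strand) and Cxcl12 at chr6:117168285-117168534 (+ strand).
Hey2: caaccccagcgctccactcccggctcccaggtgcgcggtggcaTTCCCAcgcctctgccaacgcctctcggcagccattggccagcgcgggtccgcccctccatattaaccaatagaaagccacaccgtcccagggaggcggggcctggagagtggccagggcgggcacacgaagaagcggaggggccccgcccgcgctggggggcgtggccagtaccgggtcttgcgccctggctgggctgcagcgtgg
Bmx: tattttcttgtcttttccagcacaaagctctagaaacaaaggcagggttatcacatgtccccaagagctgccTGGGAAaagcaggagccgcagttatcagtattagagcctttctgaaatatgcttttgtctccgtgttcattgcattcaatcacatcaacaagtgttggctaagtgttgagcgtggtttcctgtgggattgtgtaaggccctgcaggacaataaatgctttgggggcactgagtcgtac
Cxcl12: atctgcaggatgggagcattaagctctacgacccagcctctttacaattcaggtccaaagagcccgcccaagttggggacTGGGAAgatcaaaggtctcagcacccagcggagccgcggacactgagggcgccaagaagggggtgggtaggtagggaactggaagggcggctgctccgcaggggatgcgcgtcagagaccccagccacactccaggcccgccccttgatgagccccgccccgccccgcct
The motif lay at -207, -178 and -170 bases from the start in Hey2, Bmx and Cxcl12. Of the 13 arterial genes higher in HE, 11 had a promoter in the table, and 4 of these held the motif within 250 bases before and 50 after the start, the fourth being Sema3g. Among the 68 genes higher in HE in both sets, 51 had a promoter in the table and 19 of them held it (37.3%). Beside this stood 25.9% of the 7771 measured genes with a promoter and 28.3% of all 27025 genes in the table. These are shares of genes, which can have more than 1 promoter. Of the 32851 promoters themselves, 25.6% held it. Of the IAHC genes, 3 of 13 held it (23.1%). The 5 other motifs searched on both strands were TGTGGT, known for RUNX factors, AGATAA as a site of zinc finger factors, its overlapping form GATAAG with 5 shared letters, ACAAAG, known for SOX factors, and CACGTG, an E-box. In that order, they were held by 9.80%, 5.88%, 7.84%, 19.6% and 5.88% of the HE genes with a promoter, and by 14.2%, 7.13%, 6.13%, 15.8% and 12.2% of all such genes measured. The share was larger among the HE genes than among all those measured for 2 of these 5 motifs and smaller for 3. A match of 6 letters on either strand is a description of the sequence and no evidence of binding.

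Other arterial genes showed different dependence on cluster 4. Tmem100, a membrane protein downstream of BMP signalling in arterial endothelium, stood at 90.7, 114.2 and 40.4 CPM in HE and 5.31, 3.38 and 0.15 CPM in IAHC (4.58 ± 0.66) and had -0.45 without clusters 2 and 4. Sema3g, a secreted semaphorin of arteries, stood at 31.04, 12.3 and 30.02 CPM in HE and 1.85, 1.86 and 0.405 CPM in IAHC (3.39 ± 1.13) and had 1.33. Cxcr4, the receptor of CXCL12, stood at 14.4, 17.7 and 14.6 CPM in HE and 2.31, 7.95 and 3.42 CPM in IAHC (1.70 ± 0.59), and its ratio was not smaller in the restricted sets (2.04 in clusters 0 to 5 and 2.20 without clusters 2 and 4). Efnb2 (ephrin B2), Nrp1 (a VEGF and semaphorin co-receptor) and Igfbp3 (an IGF-binding protein) met the rule in all kept cells alone, with 1.34, 1.26 and 1.27. Unc5b, a netrin receptor, met it in clusters 0 to 5 alone (1.31 in all kept cells and 1.99 there). Sox17, a transcription factor of arterial and hemogenic endothelium, stood at 227.7, 183.9 and 289.7 CPM in HE and 125.03, 146.7 and 207.6 CPM in IAHC (0.55 ± 0.28), and the groups overlapped.

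Where the HE reads lay was measured gene by gene. The 42 HE cells of cluster 4 were 24.4% of the HE cells and gave 21.6% of the HE counts. For the 68 HE genes they gave a median of 76.7% of the HE reads, and for 51 of the 68 more than 50%. Bmx, Gja5, Hey2 and Pde3a, a cyclic nucleotide phosphodiesterase, had 99.3%, 98.9%, 98.7% and 99.1% of their HE reads there. Most of the 5 endothelial markers were spread more evenly, with 31.7% of Pecam1, 34.02% of Cdh5, 24.5% of Kdr and 18.6% of Emcn reads in these cells, while Tek, the angiopoietin receptor, had 48.1%, near arterial Efnb2 (49.3%). The cluster held 32, 3 and 7 HE cells in GL53, GL58 and GL78.

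**Figure D3:**
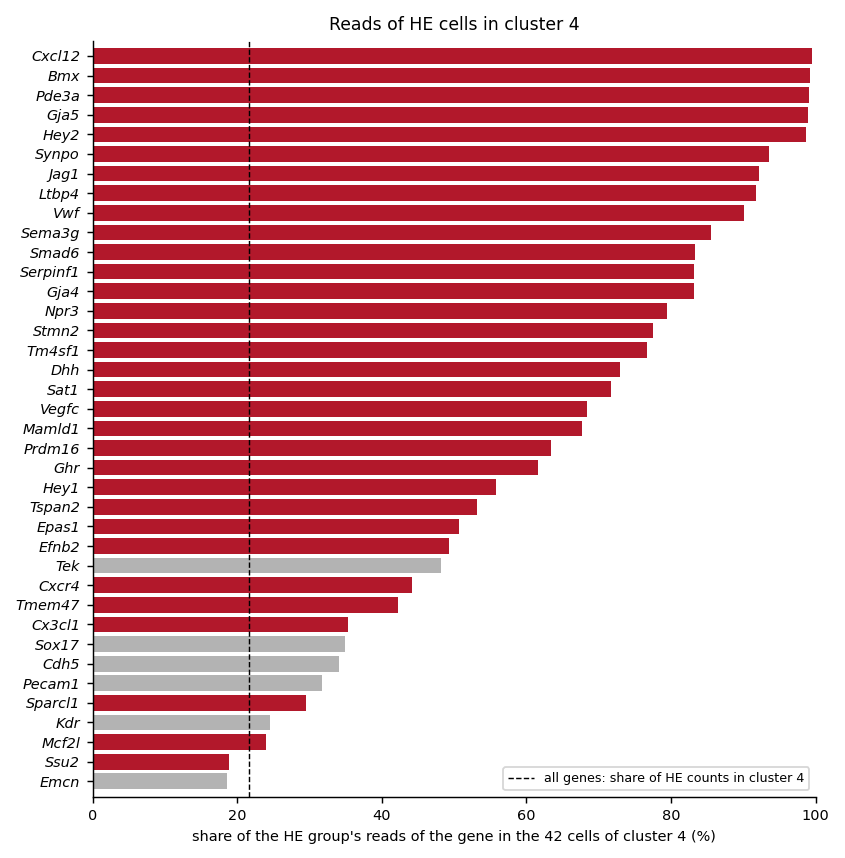
Percent of the HE reads of each named gene that came from the 42 HE cells of Louvain cluster 4, with a line at the share of all HE counts these cells gave (21.6%). Coloured bars are genes higher in HE, and grey bars are Sox17 and the pan-endothelial genes Pecam1, Cdh5, Kdr, Tek and Emcn. Arterial and elastic matrix genes lie mostly above 80%, while Sparcl1, Mcf2l and Ssu2 lie below 30%.

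A smaller set of HE genes stayed higher in HE without clusters 2 and 4, with most of their HE reads outside cluster 4. The groups were spread unevenly over the remaining clusters too: cluster 1 held 67 HE and 39 IAHC cells, and cluster 0 held 23 and 87. Ratios within single clusters were not tested. Ssu2 (chr6:112359324-112388023, - strand) stood at 68.7, 88.7 and 66.3 CPM in HE and 7.38, 21.4 and 8.47 CPM in IAHC (2.63 ± 0.56) and had 3.23 without clusters 2 and 4, with 18.8% of its HE reads in cluster 4. Sparcl1, a secreted matricellular protein, stood at 1252, 1138 and 916 CPM in HE and 424, 360.4 and 319.8 CPM in IAHC (1.58 ± 0.07) and had 1.19. Mcf2l stood at 44.5, 53.7 and 44.03 CPM in HE and 14.6, 15.1 and 14.3 CPM in IAHC (1.63 ± 0.12) and had 1.24. All 3 had values in every HE batch above every IAHC batch. Esm1, an endothelial proteoglycan, was the most extreme of this kind, at 60.1, 159.5 and 109.2 CPM in HE and 7.53, 5.67 and 12.8 CPM in IAHC (3.48 ± 0.97, and 3.44 without clusters 2 and 4), with 1.22% of its HE reads in cluster 4. It was read in 20.4%, 31.6% and 22.5% of HE cells and 4.13%, 13.3% and 7.87% of IAHC cells.

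Among Notch receptors and ligands, 8 were measured. 1 met the rule, in all kept cells alone (0.917% of all genes): Jag1, at 204.7, 46.1 and 99.8 CPM in HE and 32.3, 20.9 and 17.5 CPM in IAHC (2.06 ± 0.83). The list median was 1.09 (1.09, 0.71 and 1.12 in the batches) and 0.32 without clusters 2 and 4. Dll4, the arterial Notch ligand, stood at 239.9, 146.5 and 179.9 CPM in HE and 60.2, 125.3 and 65.7 CPM in IAHC (1.21 ± 0.90), with the groups close in GL58 and apart in the other batches. Notch4, a receptor of endothelium, stood at 124.5, 208.1 and 154.8 CPM in HE and 65.8, 58.9 and 41.8 CPM in IAHC (1.53 ± 0.53) and kept 0.91 without clusters 2 and 4. Notch1 stood at 221.1, 193.8 and 214.4 CPM in HE and 106.5, 143.6 and 151.9 CPM in IAHC (0.66 ± 0.34, and 0.53 without those clusters). Jag1 had a negative mean there (-0.88), and 92.2% of its HE reads lay in cluster 4. The Dll1 ligand gave 23.3, 34.3 and 36.6 CPM in HE and 80.4, 17.8 and 54.5 CPM in IAHC (-0.47 ± 1.33), with groups that overlapped. Of 5 measured Notch targets, Hey1 and Hey2 were higher in HE, while Hes1 stood at 83.8, 82.8 and 63.96 CPM in HE and 104.7, 116.5 and 116.5 CPM in IAHC (-0.55 ± 0.28).

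Pan-endothelial genes differed little beside the arterial ones. None of 26 met the rule in either direction, where 0.917% of all genes did. The list median was 0.59, all 3 batches gave a positive median (0.61, 0.50 and 0.63), and 21 of the 26 had a positive ratio in every batch. With clusters 2 and 4 left out the median was 0.17. Of all genes measured in all kept cells, 60.5% had a ratio of the same sign in GL53 and GL58. The share was 64.8% in GL53 and GL78 and 58.4% in GL58 and GL78. No share with the same sign in every batch is given. Counts such as 21 of 26, here and for later lists, are therefore descriptions. Pecam1, which encodes CD31, stood at 1596, 1323 and 1359 CPM in HE and 870.1, 870.1 and 732 CPM in IAHC (0.79 ± 0.16). Emcn, a sialomucin of venous and capillary endothelium, gave 1592, 1234 and 1109.8 CPM in HE and 1364, 1048 and 1034 CPM in IAHC (0.19 ± 0.07), and its groups overlapped. Flt1 (VEGF receptor 1) and Ptprb (an endothelial phosphatase) had the highest ratios of the list, 1.16 and 1.07, and Fli1, an ETS factor, gave 0.06.

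Genes of venous and lymphatic endothelium went the other way. Of 14 measured, none was higher in HE and 2 were higher in IAHC in all kept cells (0.917% of all genes in each direction), and none in clusters 0 to 5 (0.317% of all genes in IAHC). The median was -0.78 (-0.64, -0.60 and -0.78), -0.70 in clusters 0 to 5 and -0.64 without clusters 2 and 4. Nr2f2, which encodes the venous factor COUP-TFII, stood at 54.2, 46.8 and 49.6 CPM in HE and 101.9, 72.3 and 83.1 CPM in IAHC (-0.75 ± 0.14), with all IAHC values above all HE values. Nrp2, a co-receptor of VEGF-C, stood at 195.2, 201.6 and 216.8 CPM in HE and 386, 309.6 and 384.2 CPM in IAHC (-0.81 ± 0.18), again without overlap. Lyve1, a hyaluronan receptor, gave 30.2, 7.51 and 8.52 CPM in HE and 85.4, 9.60 and 126.4 CPM in IAHC (-1.84 ± 1.74), and its size differed widely between batches. The 2 genes that met the rule were Prox1 (-2.34, and -1.16 in clusters 0 to 5) and Pdpn (-4.45 and -0.74), of whose IAHC reads 52.1% and 90.5% came from clusters 6 to 10.

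Genes of the vessel wall matrix had ratios that differed widely between the batches and between the sets of cells. Among 14 measured genes of elastic fibres and the wall matrix, 1 was higher in HE in all kept cells and 3 in clusters 0 to 5, beside 0.917% and 0.849% of all genes. The median was 1.38 (1.26, 0.32 and 2.23) and -0.19 without clusters 2 and 4. Ltbp4, which binds latent TGF-β and helps to assemble elastic fibres, stood at 304.3, 157.2 and 275.2 CPM in HE and 31.3, 18.5 and 22.8 CPM in IAHC (3.27 ± 0.26), with 91.7% of its HE reads in cluster 4 and 0.48 without clusters 2 and 4. Eln, which encodes elastin, gave 454, 0 and 190.7 CPM in HE and 8.12, 1.06 and 3.39 CPM in IAHC. Fbln5, a fibulin of elastic fibres, gave 711, 4.20 and 229.1 CPM in HE and 9.10, 1.65 and 2.50 CPM in IAHC, and Mgp, an inhibitor of calcification, 47.3, 0 and 62.2 CPM in HE and 0.233, 0 and 2.11 CPM in IAHC. In GL58, with 3 HE cells in cluster 4, these 3 genes were at or near 0 in both groups, while HE was high in GL53 and GL78. Without clusters 2 and 4 the mean ratio of Eln was -1.83 and that of Fbln5 -0.26, and 99.9% of the HE reads of Fbln5 lay in cluster 4.

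Basement membrane genes gave smaller and more even ratios. Of 16 measured, 1 met the rule (Lama5, a laminin chain, at 30.9, 27.5 and 10.4 CPM in HE and 12.4, 3.59 and 3.27 CPM in IAHC), beside 0.917% of all genes, but 13 had a positive ratio in every batch. The median was 0.74 (0.80, 0.71 and 0.86), 0.63 in clusters 0 to 5 and 0.29 without clusters 2 and 4. Nid1, a linker of laminin and collagen IV, stood at 581, 438 and 498 CPM in HE and 306.4, 232.7 and 266.96 CPM in IAHC (0.91 ± 0.01). Col4a1 (a collagen IV chain) stood at 2032, 1822 and 2180.4 CPM in HE and 1242, 1118 and 1137 CPM in IAHC (0.78 ± 0.13) and Sparc, a collagen-binding glycoprotein, at 3336, 2445 and 3410.1 CPM in HE and 1543, 1439 and 1586 CPM in IAHC (0.99 ± 0.20). In all 3 the HE values lay above the IAHC values. Fn1, fibronectin, turned negative without clusters 2 and 4 (1.08 and -0.77).

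Of 17 measured genes of flow and vasoactive signalling, 4 met the rule in HE in all kept cells, beside 0.917% of all genes, and none in IAHC. Vwf, the clotting factor stored in endothelial granules, stood at 1221, 303.5 and 876 CPM in HE and 373.04, 39.7 and 152.2 CPM in IAHC (2.38 ± 0.61). Npr3, the clearance receptor of natriuretic peptides, stood at 63.04, 67.4 and 39.9 CPM in HE and 17.1, 13.6 and 8.55 CPM in IAHC (2.05 ± 0.21), Pde3a at 128.1, 13.5 and 36.3 CPM in HE and 20.7, 0.0846 and 7.29 CPM in IAHC (2.83 ± 0.82) and Cav2, a caveolin, at 74.02, 82.4 and 48.7 CPM in HE and 35.01, 26.1 and 22.6 CPM in IAHC (1.25 ± 0.32). Only Cav2 of the 4 kept a clearly positive mean without clusters 2 and 4 (-0.73, -0.06, -1.68 and 0.79). The list median was 0.46 and -0.17. Klf4, a factor induced by flow, gave 38.5, 49.6 and 43.8 CPM in HE and 69.7, 44.8 and 103.9 CPM in IAHC (-0.64 ± 0.71), with groups that overlapped.

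Signals that HE could send or receive included single genes of several pathways, while the medians of the VEGF, Wnt, hedgehog and BMP lists lay between -0.13 and 0.28, beside -0.084 for all genes. Of 14 measured VEGF and angiopoietin genes, 3 met the rule in HE, beside 0.917% of all genes here and for the lists that follow: Esm1, Nrp1 and Vegfc, a ligand of the lymphatic VEGF receptor, at 117.3, 135.2 and 65.8 CPM in HE and 36.6, 25.2 and 16.3 CPM in IAHC (1.99 ± 0.36). The list median was 0.17. Of 12 Wnt genes 1 met it, Dkk2, an extracellular modulator of Wnt receptors, at 97.5, 48.5 and 49.6 CPM in HE and 6.13, 1.48 and 0 CPM in IAHC (4.59 ± 0.97, and 2.77 without clusters 2 and 4). IAHC of GL78 had no Dkk2 read, and HE stood at 1103-fold the floor. Of the HE reads of Dkk2, 93.04% lay in cluster 4. Of 5 hedgehog genes Dhh, the desert hedgehog ligand, met it at 37.6, 30.6 and 34.9 CPM in HE and 13.5, 6.47 and 4.90 CPM in IAHC (2.03 ± 0.60). Dhh overlaps the measured gene Rhebl1, and reads of overlapping genes cannot be told apart without strand. Of 18 BMP and TGF-β genes Smad6, an inhibitor induced by BMP, met it at 40.2, 29.1 and 37.7 CPM in HE and 14.7, 8.46 and 14.7 CPM in IAHC (1.45 ± 0.19). The list median was 0.19.

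Guidance and chemokine genes held members of both directions, beside 0.917% of all genes in each. Of 24 measured guidance genes, Sema3g, Plxna2, Efna1 and Efnb2 were higher in HE and Plxnc1, a semaphorin 7A receptor, in IAHC, at 9.48, 2.13 and 4.01 CPM in HE and 23.4, 16.96 and 16.6 CPM in IAHC (-1.85 ± 0.65). Plxnc1 kept its difference in every set (-1.98 in clusters 0 to 5 and -2.49 without clusters 2 and 4). Of 9 chemokine genes, Cxcl12, Cxcr4 and Cx3cl1 were higher in HE, and Cx3cr1, the receptor of CX3CL1, in IAHC. Cx3cl1 stood at 49.9, 55.5 and 79.5 CPM in HE and 19.1, 9.01 and 24.6 CPM in IAHC (1.83 ± 0.60) and kept 1.28 without clusters 2 and 4. Cx3cr1 gave 4.46, 0.473 and 0 CPM in HE and 10.9, 9.13 and 39.6 CPM in IAHC, and cells of clusters 2 and 6 to 10 gave 62.5% and 37.4% of its IAHC reads. Ligand and receptor were thus both higher in HE for the CXCL12 pair and higher in opposite groups for the CX3CL1 pair.

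**Figure D4:**
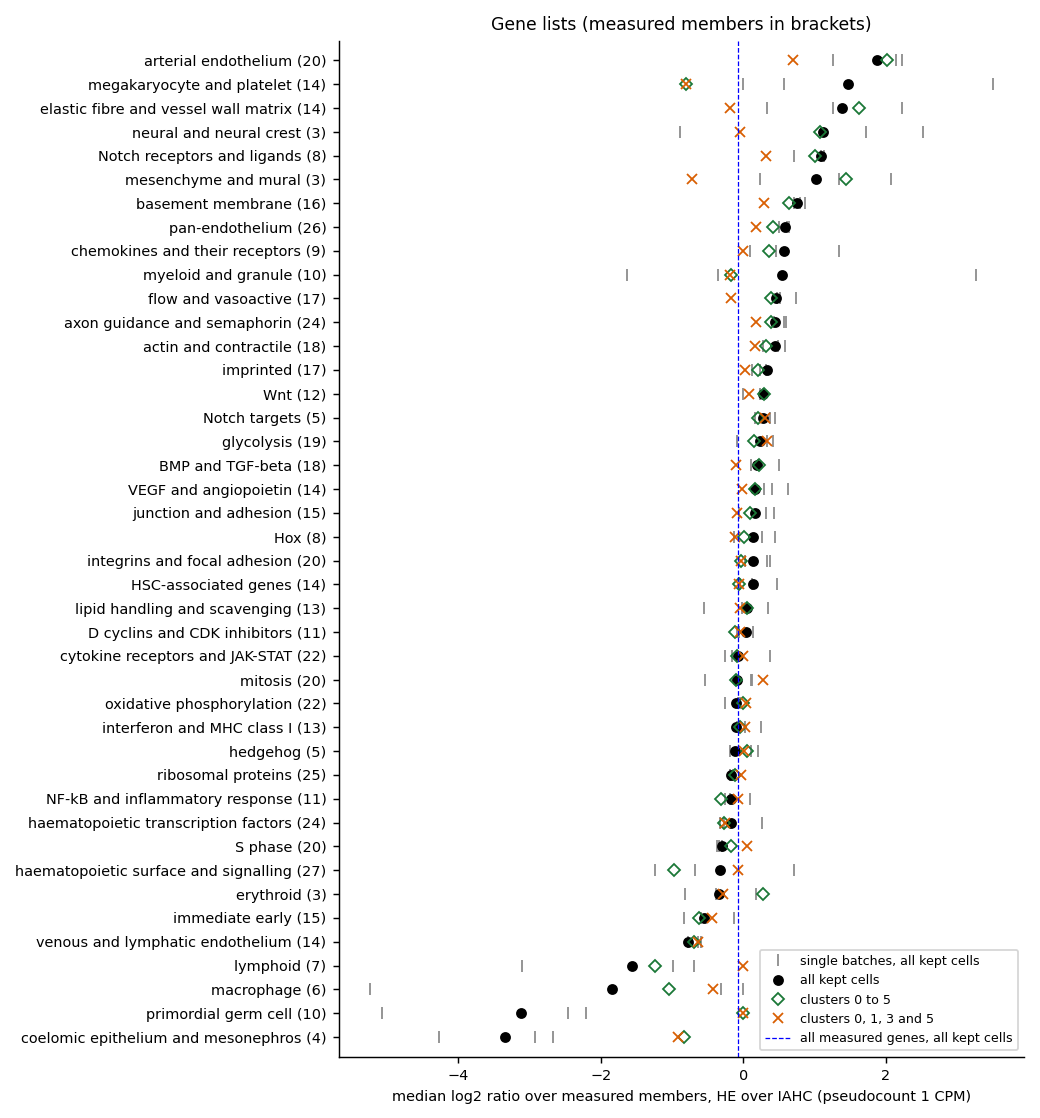
Median log2 ratio (HE over IAHC) of the measured members of gene lists, in each batch and set of cells, beside the median of all genes measured (-0.084 in all kept cells). The arterial list lies at 1.88 in all kept cells and at 0.69 without clusters 2 and 4, and the venous and lymphatic list lies below 0 in every batch.

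Genes of the blood program separated the groups less than the arterial genes did. None of 24 measured hematopoietic transcription factors met the rule in all kept cells, and 1, Meis1, met it in IAHC in clusters 0 to 5 (0.317% of all genes did). The median was -0.18 (-0.34, 0.26 and -0.28), of both signs over the batches. Meis1, a homeobox cofactor of stem cells, stood at 32.1, 16.2 and 11.05 CPM in HE and 67.7, 27.4 and 50.999 CPM in IAHC (-1.29 ± 0.72), with -1.49 in clusters 0 to 5 and -1.27 without clusters 2 and 4. Runx1, needed for the transition to blood, gave 11.9, 21.99 and 25.3 CPM in HE and 35.1, 20.04 and 20.5 CPM in IAHC (-0.36 ± 0.98), and Myb 0.879, 8.57 and 0.494 CPM in HE and 26.998, 10.8 and 12.4 CPM in IAHC (-2.46 ± 1.90). In HE of GL58, with 19 cells, Runx1 and Spi1 (PU.1) were as high as in IAHC of GL58 or higher: Spi1 gave 4.87, 49.3 and 2.41 CPM in HE and 49.6, 24.2 and 36.99 CPM in IAHC. Without thinning, each of the 2 genes was read in 3 of the 19 HE cells of GL58 and in 1 of the 40 of GL78. In IAHC, 89.7% of the Runx1 reads, 97.01% of those of Spi1 and 92.7% of those of Myb came from the 39 cells of cluster 2, which were 16.3% of the IAHC cells.

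Surface and signalling genes of blood cells followed the same cells. Of 27 measured, none met the rule. The median was -0.34 (-1.24, 0.70 and -0.69), -0.97 in clusters 0 to 5 and -0.07 without clusters 2 and 4. Ptprc, which encodes CD45, stood at 9.07, 19.5 and 23.8 CPM in HE and 36.5, 24.9 and 65.1 CPM in IAHC (-1.22 ± 0.80), with 94.1% of the IAHC reads from cluster 2. Itga2b, which encodes CD41, gave 19.5, 7.63 and 346.8 CPM in HE and 13.1, 11.2 and 39.01 CPM in IAHC, and its HE value in GL78 rested on the single HE cell of cluster 9, which gave 86.3% of all HE reads of the gene. That cell also gave 93.9% of the HE reads of Pf4 and 87.6% of those of Gp9, platelet genes. The megakaryocyte and platelet list had a median of 1.47 in all kept cells and -0.80 in clusters 0 to 5, which leave out that cell and 31 IAHC cells.

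Genes tied to stem cells were divided. Of 14 measured, Mecom and Prdm16 were higher in HE and Ctnnal1 in IAHC in all kept cells (0.917% of all genes in each direction), and Prdm16 alone in clusters 0 to 5 (0.849% and 0.317%). Mecom, the EVI1 factor, stood at 262.4, 125.6 and 119.4 CPM in HE and 87.8, 47.2 and 49.5 CPM in IAHC (1.41 ± 0.16), Prdm16, a related zinc finger factor, at 64.2, 41.98 and 51.2 CPM in HE and 23.5, 17.9 and 10.02 CPM in IAHC (1.61 ± 0.56) and Ctnnal1, an α-catenin-like protein, at 35.1, 16.3 and 14.3 CPM in HE and 73.7, 38.8 and 41.7 CPM in IAHC (-1.25 ± 0.22). The HE and IAHC values of each were apart. With the cells of clusters 2 and 4 left out they had 0.52, 0.38 and -1.67, so that of the 3 Ctnnal1 was the one whose ratio did not shrink. The list median was 0.13.

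The 5 named genes higher in IAHC were Fcgrt, Lgals9, Npl, Dmtn and Gem. Fcgrt, the neonatal Fc receptor, stood at 22.9, 3.37 and 14.7 CPM in HE and 59.03, 14.3 and 55.1 CPM in IAHC (-1.66 ± 0.29, and -1.83 without clusters 2 and 4). Lgals9, galectin 9, stood at 20.6, 5.62 and 28.2 CPM in HE and 141.1, 31.4 and 75.6 CPM in IAHC (-2.13 ± 0.68 and -1.71). Both were low in GL58 in both groups, and the groups of Fcgrt overlapped across batches while every batch had IAHC higher. Npl (N-acetylneuraminate pyruvate lyase), Dmtn (dematin, an actin-bundling protein) and Gem (a small GTPase) had log2 ratios of -1.45 ± 0.27, -1.52 ± 0.59 and -1.36 ± 0.45. Reads of Fcgrt and Dmtn came hardly at all from cluster 2 (0.884% and 0.00523%), in contrast to those of Lgals9 (64.8%). Gata4, a transcription factor of coelomic and cardiac tissue, was also higher in IAHC in both sets, at 1.83, 0 and 0 CPM in HE and 21.7, 18.1 and 11.7 CPM in IAHC (-3.64 ± 0.63), in 3.54%, 0% and 0% of HE cells and 12.4%, 6.67% and 6.74% of IAHC cells.

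Most genes higher in IAHC in all kept cells alone came from a few cells. There were 72 of them, and the 31 IAHC cells of clusters 6 to 10 (12.9% of the cells and 12.3% of the counts) gave a median of 95.6% of their IAHC reads. The 15 cells of cluster 8 gave more than 50% of the IAHC reads for 56 of the 72. In HE, 50 of the 72 stood below 1 CPM, and in clusters 0 to 5 the median ratio of the 72 was -0.19. Primordial germ cell genes were the plainest case: 8 of 10 measured met the rule in all kept cells, beside 0.917% of all genes, and none in clusters 0 to 5. Dppa3, a maternal-effect and germ cell protein, stood at 0, 0 and 0 CPM in HE and 44.4, 242.4 and 42.1 CPM in IAHC, and 100% of its reads came from clusters 6 to 10. Dazl, a germ cell RNA-binding protein, gave 0, 0 and 0 CPM in HE and 32.1, 230.1 and 31.2 CPM in IAHC. For Dppa3, IAHC stood at 1178-fold, 1367-fold and 455-fold the floor. The median of the list was -3.13, -6.41 with genes at 0 placed at the floor, and -0.01 in clusters 0 to 5.

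Markers of other cell types were read at levels that differed by list and batch. The sums given here are over every member of a list found in the data, also those below 10 CPM. Of the coelomic and mesonephric list, 4 were measured and 3 were higher in IAHC in all kept cells (0.917% of all genes were), with Gata4 alone in clusters 0 to 5 (0.317% of all genes). Of the macrophage list 6 were measured, with the list summed at 36.8 to 86.5 CPM in HE and 74.3 to 286.7 CPM in IAHC, and of the erythroid list 3, summed at 52.1 to 62.3 CPM in HE and 49.9 to 123.6 CPM in IAHC. Of the mesenchyme and mural list 3 of 15 genes were measured, and the list summed to 56.2 to 85.3 CPM in HE and 18.2 to 61.3 CPM in IAHC. Of the 14 myeloid and granule genes 10 were measured, and none met the rule. The list summed to 182.4 to 1576 CPM in HE and 99.5 to 669 CPM in IAHC. Its highest sum was HE of GL58, where Mpo, the myeloperoxidase gene, stood at 880.3 CPM. A single cell gave 37.7% of all HE reads of this list. The 14 megakaryocyte and platelet genes summed to 101.7 to 3504 CPM in HE and 71.4 to 320.2 CPM in IAHC, and a single HE cell gave 88.6% of their HE reads. Of them 1, Alox12, was higher in HE in all kept cells (0.917% of all genes were) and none in clusters 0 to 5. The HE cell of cluster 9 gave 63.97% of the HE reads of Alox12. The 11 germ cell genes summed to 128.6 to 165.4 CPM in HE and 390.5 to 1415 CPM in IAHC. Of the lymphoid list 7 genes were measured, and the list summed to 115.1 to 153.3 CPM in HE and 240.1 to 289.8 CPM in IAHC. Of its genes 1 was higher in IAHC in all kept cells and 2 in clusters 0 to 5, beside 0.917% and 0.317% of all genes. Of the neural list 3 genes were measured, and the list summed to 192.9 to 275.2 CPM in HE and 37.9 to 81.1 CPM in IAHC. Sox2 was higher in IAHC in all kept cells. Stmn2, a regulator of microtubules, was higher in HE in both sets, at 226.1, 211.2 and 174.1 CPM in HE and 31.3, 36.3 and 24.5 CPM in IAHC (2.702 ± 0.17, and 0.59 without clusters 2 and 4). The part of these cells in the results of other genes was not tested beyond the restriction to clusters 0 to 5.

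Immediate early genes, which cells switch on within minutes of a growth or stress signal, had negative ratios. None of 15 measured met the rule, 9 had a negative ratio in every batch, and the median was -0.55 (-0.60, -0.13 and -0.83). Without clusters 2 and 4 it was -0.45. Fos stood at 436, 402 and 723 CPM in HE and 688, 899.5 and 1305 CPM in IAHC (-0.89 ± 0.25), and Egr1 at 63.8, 40.8 and 68.7 CPM in HE and 103.8, 115.02 and 153.7 CPM in IAHC (-1.11 ± 0.39). In both, the ratio was negative in every batch, and IAHC values were highest in GL78.

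Growth and metabolism differed by less. For S phase genes, 13 of 20 had a negative ratio in every batch, the median was -0.30 in all kept cells, and it was 0.05 without clusters 2 and 4. Ribosomal protein genes had a negative ratio in every batch in 23 of 25, with a median of -0.18 in all kept cells and -0.03 without clusters 2 and 4, beside -0.084 and -0.040 for all genes. The counts of signs in this paragraph have no share of all genes beside them and are descriptions. Glycolysis genes had 0.24, with Slc2a1, the glucose transporter GLUT1, at 567, 901 and 691 CPM in HE and 355.2, 409 and 262.3 CPM in IAHC (1.07 ± 0.37). Genes of oxidative phosphorylation had -0.10 and Hox genes 0.13. Imprinted genes had 0.33, 10 of 17 with a positive ratio in every batch, among them Mest at 3687, 3859 and 4022 CPM in HE and 2699, 3045 and 2834 CPM in IAHC (0.43 ± 0.08).

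The Cyclone phases deposited with the cells were alike in the groups within a batch and unlike between batches. G1 held 65.5%, 31.6% and 57.5% of HE cells and 60.3%, 33.3% and 57.3% of IAHC cells in GL53, GL58 and GL78. G2M held 26.5%, 52.6% and 40% of HE cells and 32.2%, 53.3% and 35.96% of IAHC cells. With 19 HE and 30 IAHC cells, GL58 held few cells in any phase.

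Fluorescence recorded at the sort gave a protein readout of the same cells, in all kept cells of GL53 and GL78 and in 9 HE and 22 IAHC cells of GL58. Values are the sorter's units, some of them below 0, and were compared within a batch alone. Of all pairs of 1 HE and 1 IAHC cell, HE had the higher cKIT signal in 2.12%, 0% and 0.983%, which the gate itself fixed. DLL4 was higher in HE in 79.1%, 52.5% and 71.9% of pairs, with medians of 42.2, 11.9 and 17.9 in HE and -48.8, 22.9 and -49.6 in IAHC, and without clusters 2 and 4 in 75.1%, 58.5% and 67.2%. The batches with a higher DLL4 signal in HE, GL53 and GL78, were also those with the larger Dll4 mRNA ratios, and GL58, with 9 HE cells, was near even in both. JAG1 was near even in all kept cells (45.5%, 57.1% and 48.7%). Without clusters 2 and 4 its shares were 41.2%, 70.8% and 34.4%, of no single direction. In that set every signal of GL58 rested on 5 HE and 13 IAHC cells. Jag1 mRNA was higher in HE in every batch of all kept cells. NOTCH1 was higher in HE in 37.5%, 33.3% and 49.3% of pairs and NOTCH2 in 37.5%, 41.9% and 48.3% (32.3%, 40% and 46.1% and 33.2%, 52.3% and 45.95% without clusters 2 and 4), while Notch1 mRNA was higher in HE in every batch.

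CD41 and CD45, which the stated gate does not name, were lower in HE in GL53 and GL78. HE had the higher CD41 signal in 24.9%, 55.6% and 22.9% of pairs and the higher CD45 signal in 24.1%, 44.9% and 21.7%. In clusters 0, 1, 3 and 5 alone these shares were 26.2%, 44.6% and 16.6% and 27.1%, 40% and 20.9%, a restriction of this readout chosen after the data had been seen. There, no cell of either group had a Ptprc read, and Itga2b mRNA had a mean log2 ratio of -0.999. CD31 and the GFI1 reporter, which set the gate, were near even in GL53 and GL78, at 49.5%, 62.1% and 56.6% and 46.8%, 66.7% and 51.6%.

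**Figure D5:**
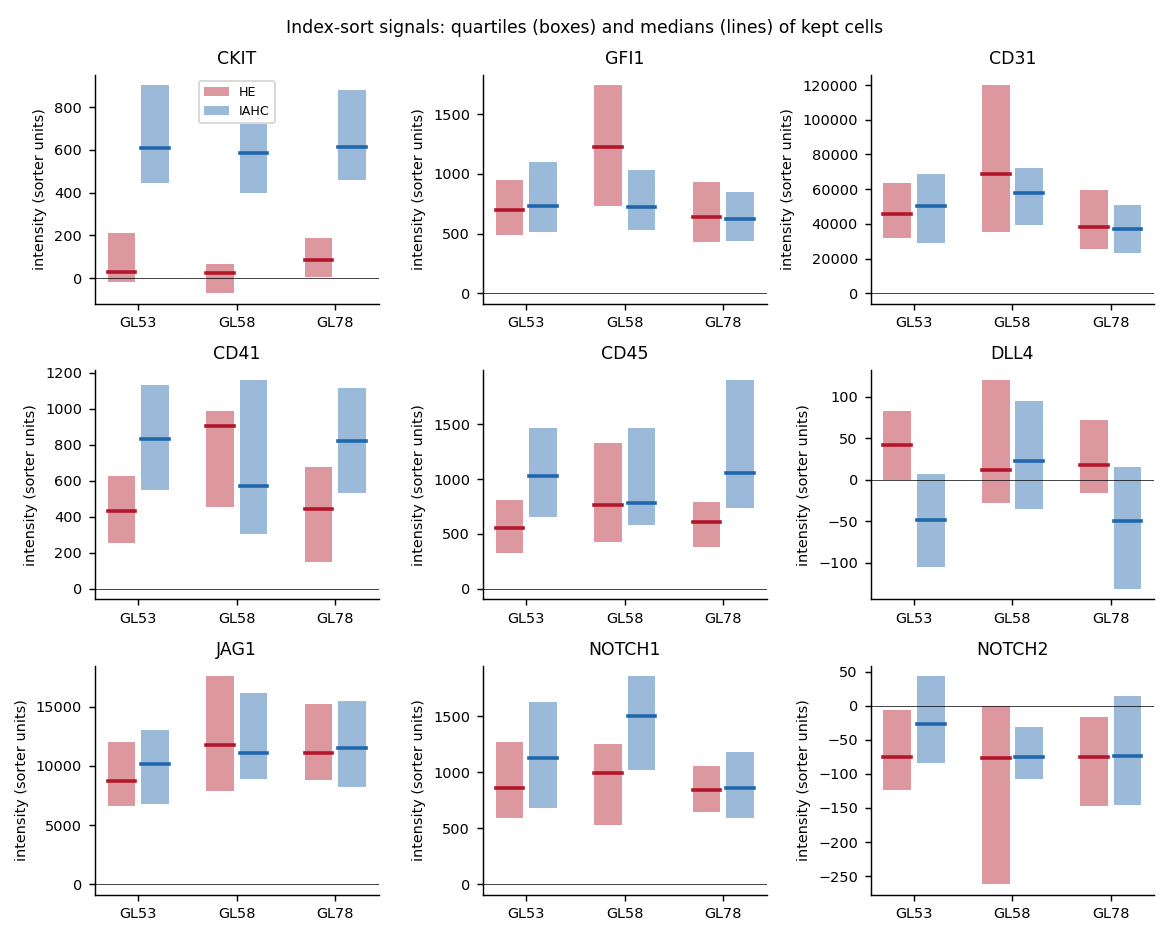
Index-sort fluorescence (sorter units, linear axis) of HE and IAHC cells in each batch, with boxes from the lower to the upper quartile and a line at the median. cKIT set the gate, and DLL4 lies higher in HE in GL53 and GL78 while CD41 and CD45 lie lower.

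Reads of endothelial and blood markers met in few cells, and in how many depended on the depth used. At least 3 endothelial and at least 2 blood markers were read together in 1, 0 and 0 HE cells and in 10, 0 and 2 IAHC cells. Without thinning they were read together in 3, 1 and 1 HE cells and 15, 1 and 6 IAHC cells. In IAHC of GL53, 10 of the 22 cells with at least 2 blood markers after thinning also had at least 3 endothelial markers. Fewer than 3 endothelial and at least 2 blood markers were read after thinning in 3, 3 and 2 HE cells and in 12, 3 and 17 IAHC cells. At least 2 of the arterial markers Gja5, Gja4, Efnb2 and Sox17 were read in 84.96%, 84.2% and 67.5% of HE cells and in 53.7%, 60% and 50.6% of IAHC cells. After thinning, Efnb2 was read in 60.3%, 60% and 53.9% of IAHC cells and Sox17 in 58.7%, 63.3% and 67.4%. Gja4 was read in 16.5%, 30% and 13.5% of IAHC cells and Gja5 in 4.96%, 6.67% and 0%. Most IAHC cells thus held reads of at least 2 arterial markers, mainly Efnb2 and Sox17, and few held Gja4 or Gja5. Per sum, Gja4 and Hey1 stood lower in IAHC than in HE. No doublet caller was run, and whether wells with joint reads held 1 cell was not tested.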

How the data were processed

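Single AGM cells were index sorted for paired-end Smart-Seq2, 1 library a cell. Of the kept cells 172 were HE (113, 19 and 40 in GL53, GL58 and GL78) and 240 IAHC (121, 30 and 89), with 171 and 209 in clusters 0 to 5. The counts were made by the authors, per the submitters' processing notes with STAR 2.7.3, HTSeq 0.9.1 and mm10, and were deposited raw. The annotation release, strand setting, duplicate handling and sorter compensation are not given in the sources used here, so overlapping and antisense genes cannot be told apart. The annotation deposited by the authors held index-sort fluorescence intensity, the mitochondrial fraction, Louvain clusters (computed after regressing depth, mitochondrial share and cell cycle, without batch correction) and Cyclone phases. The normalized table, deposited as log values, was left aside.

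For each group the counts of its cells were added up within a batch (python 3.11.15, numpy 2.4.6, pandas 2.3.3, scipy 1.17.1). Ratios used 1 CPM as pseudocount, and a gene was measured at 10 CPM in either group. Named genes were those higher in one group in both sets of cells and read in 25% or more of that group's cells of each batch, ranked by their smallest batch ratio (up to 25 per direction, predicted genes passed over), plus, in each list, members meeting the rule and those with the highest and lowest ratio, the gate and marker genes, and list members described as examples. The members and the 42 lists (739 symbols, 3 not found, 543 measured) were chosen with earlier results of these data known. The code was tested on simulated data. Intervals are exact at a level of 0.95 and cover counting error only. No doublet caller was run. Alternatives tried were another pseudocount, filter, normalization, thinning, weighting of cells, leaving out the highest cell, clusters 2 and 4, all but G1 cells, each batch, and adding cells left out by the authors. Promoters came from RefSeq (GRCm38.p6).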

Additional observations from a re-analysis of the deposited data

How the results depend on the processing

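No paired analysis was possible beyond the ratios within batches, because the labels pair no cells and the results come from no test. Over named genes and their alternatives, 88.3% of values moved by less than the spread of the batches. Changes of sign were counted for genes that met the rule in all kept cells and for list medians of 1 sign in every batch. Of these genes 12 values changed sign, all without clusters 2 and 4. Of the list medians 84.2% moved by less, and 20 of those so counted changed sign. The cause of these changes was not tested.

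In the order HE then IAHC, 0.917% and 0.917% of measured genes were at least 2-fold higher in all kept cells, and 0.849% and 0.317% in clusters 0 to 5. With a pseudocount of 5 CPM the shares were 0.574% and 0.464%, and 0.532% and 0.153%. A filter of 1 CPM gave 0.862% and 1.74%, and 0.828% and 0.693%. With the highest cell of each gene left out they were 0.566% and 1.11%, and 0.596% and 0.498%. Dropping clusters 2 and 4 gave 0.212% and 0.297%. G1 cells gave 2.57% and 3.5%, and 2.61% and 3.29%. Leaving out 1 batch gave 1.44% to 1.64% and 1.64% to 2.54% in all kept cells, and in clusters 0 to 5 1.28% to 1.65% and 0.619% (without GL78) to 2.52% (without GL58). In these last settings and in G1 cells 2 batches entered (GL58 had too few G1 cells), so that fewer values had to pass the same rule. Median-of-ratios scaling, thinning, cell means and all sequenced cells kept each count within 1.5 times.

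The arterial median was 0.69 without clusters 2 and 4 and 2.86 in G1 cells (2.98 in clusters 0 to 5). It lay between 1.66 and 2.21 with 1 batch left out, and between 1.86 and 2.31 in clusters 0 to 5. The hematopoietic surface median was -2.16 and -2.23 in G1 cells, and ranged from -1.08 to -0.045 and from -1.71 to -0.44 with 1 batch left out. The share of IAHC cells of GL53 with at least 2 arterial markers was 66.9% without thinning.

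Of the results so counted, without clusters 2 and 4 the medians of elastic fibre (-0.19), flow (-0.17), BMP (-0.10), mesenchyme (-0.72), S phase (0.045) and oxidative phosphorylation genes (0.042) changed sign in both sets, and those of VEGF (-0.018), chemokine (-0.0080) and integrin genes (-0.037) in all kept cells. Of the genes, Synpo (-0.45), Npr3 (-0.060), Vwf (-0.73), Smad6 (-0.31), Pou5f1 (0.31), Alpl (0.98), Jag1 (-0.88), Bmx (-0.15), Cxcl12 (-1.02), Tmem100 (-0.45), Pde3a (-1.68) and Alox12 (-1.63) did so. Pou5f1 and Alpl were above 0 in clusters 0 to 5 already (0.26 and 0.86). That set leaves out cluster 8, which held 100% and 99.8% of their IAHC reads. A filter of 1 CPM gave -0.045 for VEGF and -0.11 for mesenchyme genes, and G1 cells -0.037 for integrin genes. In clusters 0 to 5 oxidative phosphorylation genes gave 0.038 with median-of-ratios scaling, and -0.043 to 0.014 with 1 batch left out, above 0 without GL58.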
